A study of Mus musculus with 6 samples.

Results

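The genes described here are 39 genes of glucose breakdown and of the response to low oxygen, taken by name from a table of 38776 genes, with earlier results of these data already known. They comprise 4 transporters of glucose and lactate, 15 glycolytic enzymes, 3 muscle isoforms of glycolytic enzymes that are kept apart (Pfkm, Pgam2 and Eno3), 4 pyruvate dehydrogenase kinases, 4 isoforms of phosphofructokinase-2, the oxygen-regulated factor Hif1a with 2 of its sensors, and 6 further targets of that factor. All 39 had counts, and 38 passed the filter on low counts. Pgam2 was the exception.

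Glycolysis turns glucose into pyruvate, which lactate dehydrogenase can reduce to lactate or pyruvate dehydrogenase can pass on to the mitochondria. The hypoxia-inducible factor (HIF) pairs an alpha subunit, which prolyl hydroxylases mark for degradation when oxygen is present, with the constant partner Arnt, and many genes of glucose uptake, glycolysis and lactate export are among its known targets. Photoreceptors are known for turning much of their glucose into lactate even when oxygen is plentiful.

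RNA was measured in 661W cells, a mouse line taken from a retinal tumour driven by SV40 T antigen and used as a cone photoreceptor model. All cells were seeded in high-glucose DMEM with 10% FCS and grown for 48 h. The medium was then exchanged, either for the same medium with 10% FCS (serum-fed) or for medium with 0% FCS (serum-starved), and cells were kept for a further 72 h. At each of passages 24, 26 and 27 there was 1 library per condition, and the series text describes the passages as independent experiments, so n = 3 per condition, all from 1 line. The oxygen level of the cultures was not analysed here.

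The 6 libraries had totals of 71970076 to 87178722 counts. Levels are CPM, a gene's count scaled to its library's total, and 3 counts in a library correspond to 0.0344 to 0.0417 CPM. A positive log2 fold change means more RNA in starved cells. The test was edgeR's quasi-likelihood F-test over 16168 genes, blocked by passage, and a gene is called at an adjusted p under 0.05. On the first principal component (57.8% of the variance) the starved library of passage 24 lay at −37.4, on the side of the fed libraries of passages 24 and 26 (−85.4 and −28.1), whereas the other starved libraries lay at 58.5 and 65.8 and the fed library of passage 27 at 26.5. Of 20 photoreceptor markers, 4 (Nrl, Arr3, Cnga1 and Rcvrn) had no count in any library and 9 were tested. Their summed level was 53.5 to 61.6 CPM in fed and 46.2 to 79.9 CPM in starved cells, most of it Otx2, a transcription factor gene (42.1 to 74.3 CPM). Guca1a, which encodes a guanylate cyclase activator, was the 1 called and rose (log2 fold change 1.55 ± 0.27 (SE), adjusted p = 0.0252). The summed level of 12 proliferation markers was 3037 to 3321 CPM in fed and 3081 to 3187 CPM in starved cells, and none of the 12 was called (edgeR; 1 lower and 0 higher by an unadjusted p under 0.05, and 0 by DESeq2 or limma-voom). In RNA from whole cultures, fewer cells of a type and less RNA per cell cannot be told apart.

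Starved cells held less messenger of a run of glycolytic enzymes and HIF targets. Of the 38 members tested, 11 fell (28.9%, against 1.6% of all 16168 genes called lower), and 1 rose (2.63%, against 3.48% of all genes called higher and 5.07% called in either direction). The genes that fell were the lactate exporter Slc16a3, the enzymes Hk2, Pfkl, Pgk1, Eno1, Eno3 and Ldha, the kinase Pdk1, and Bnip3, Vegfa and Ankrd37, with log2 fold changes from −1.20 to −0.62. The gene that rose was Aldoc, the brain-type aldolase. None of the 38 passed an adjusted p of 0.01, which 0.847% of all genes did, and the smallest adjusted p of a member was 0.0201, so these calls lie near the threshold. With DESeq2 and the same block the 11 had adjusted p from 5.32e-07 to 0.00153, and with limma-voom from 0.0175 to 0.0385. At an unadjusted p under 0.05, 18 members were lower and 5 higher, against 11.1% and 13.1% of all genes. The median log2 fold change of the members was −0.37, beside −0.001 for all genes tested.

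The calls depended on which passages were included. With passage 24 left out 12 members were called lower, including 10 of the 11, beside 3.13% of all genes tested. With passage 26 left out 6 were, all of them among the 11, beside 0.660% of all genes. With passage 27 left out none was, beside 0.399% of all genes, and the 11 had adjusted p from 0.0697 to 0.170. In that fit 17 members were lower at an unadjusted p under 0.05, as were 1302 of all 15778 genes tested. In edgeR without the passage as a block no member was called, and of all genes 4 were called higher and 0 lower. By an unadjusted p under 0.05, 8 members were lower and 1 higher, as were 483 and 864 of all 15660 genes tested. All 11 kept a negative log2 fold change in each of the alternatives run.

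Within passages, 21 of the 38 members were lower in starved than in fed cells in all 3 passages (55.3%, against 24.3% of all genes), 7 were higher in all 3 (18.4%, against 22.7%), and 10 went both ways. In 7 members every starved library had a lower CPM than every fed library, and in 2 every starved library had a higher one, where 12.8% of all genes showed either. Those 7 were Gpi1, Pgk1, Ldha, Eno3, Pfkfb3, Egln1 and Ankrd37, and the other 2 were Aldoc and Pfkfb4.

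**Figure D1:**
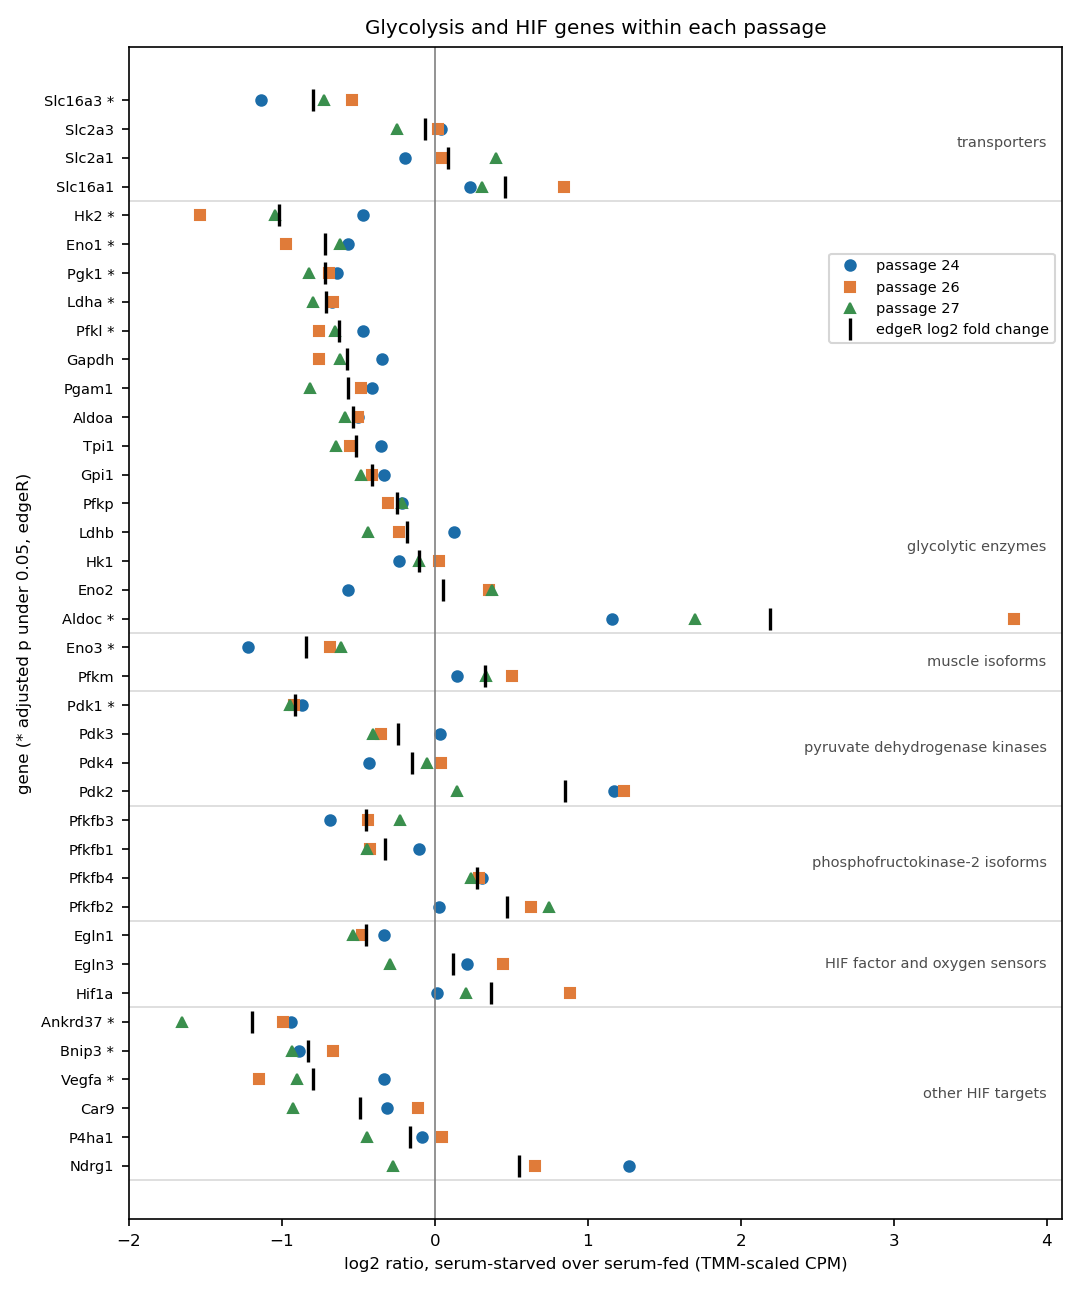
Log2 ratio of serum-starved over serum-fed cells for the 38 members tested (TMM-scaled CPM, horizontal axis), 1 point per passage, with the edgeR log2 fold change as a black bar, sorted within each role and marked with an asterisk where called. In 21 members all 3 points lie below 0, and Aldoc lies farthest above 0.

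Because several of the genes that fell are known HIF targets, the stretches of DNA before their starts are shown for Ldha, Pgk1, Ankrd37 and Bnip3, which fell, and for Aldoc, which rose. They were chosen after the values were seen. Each line holds the 250 bases before a RefSeq start (GRCm38.p6), 5′ to 3′ on the gene's strand, for the start with the lowest coordinate. Capitals mark ACGTG on either strand, CACGT being ACGTG read on the other strand. ACGTG and GCGTG are the letters of the core to which HIF is known to bind.
Ldha (chr7:46845554-46845803, plus strand): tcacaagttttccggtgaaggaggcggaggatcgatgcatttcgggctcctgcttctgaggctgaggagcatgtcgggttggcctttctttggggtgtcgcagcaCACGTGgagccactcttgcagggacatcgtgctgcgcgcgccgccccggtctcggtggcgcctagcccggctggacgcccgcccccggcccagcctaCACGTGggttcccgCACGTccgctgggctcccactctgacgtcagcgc
Pgk1 (chrX:106186850-106187099, plus strand): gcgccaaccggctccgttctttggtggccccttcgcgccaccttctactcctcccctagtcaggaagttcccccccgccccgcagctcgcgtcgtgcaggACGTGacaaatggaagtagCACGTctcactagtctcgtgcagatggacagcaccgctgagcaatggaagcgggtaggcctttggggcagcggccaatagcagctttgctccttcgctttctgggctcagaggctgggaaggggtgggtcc
Ankrd37 (chr8:45999851-46000100, minus strand): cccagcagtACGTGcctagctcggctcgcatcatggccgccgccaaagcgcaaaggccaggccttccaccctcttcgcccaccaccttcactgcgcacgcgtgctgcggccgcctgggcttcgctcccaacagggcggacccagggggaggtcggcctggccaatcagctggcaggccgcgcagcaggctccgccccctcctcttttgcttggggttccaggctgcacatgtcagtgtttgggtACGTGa
Bnip3 (chr7:138909507-138909756, minus strand): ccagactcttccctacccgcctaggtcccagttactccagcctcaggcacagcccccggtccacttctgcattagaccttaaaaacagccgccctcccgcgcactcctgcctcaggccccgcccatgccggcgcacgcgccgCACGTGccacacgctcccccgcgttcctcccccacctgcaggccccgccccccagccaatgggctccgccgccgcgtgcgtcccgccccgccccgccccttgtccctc
Aldoc (chr11:78322823-78323072, plus strand): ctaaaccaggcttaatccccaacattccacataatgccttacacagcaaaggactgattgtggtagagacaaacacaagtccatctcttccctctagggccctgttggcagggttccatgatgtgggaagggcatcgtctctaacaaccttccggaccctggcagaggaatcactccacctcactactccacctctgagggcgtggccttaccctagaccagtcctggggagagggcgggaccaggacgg
The Ldha stretch holds 5 matches, which begin at positions −145, −144, −48, −47 and −34, counted back from −1 at the base before the start. CACGTG reads the same on both strands, so each CACGTG counts as 2 overlapping matches, as it does in Bnip3, whose 2 matches begin at −108 and −107. Pgk1 holds 2 (at −150 and −131), Ankrd37 holds 2 (at −241 and −6), and the Aldoc stretch holds no ACGTG. The stretches shown do not stand for all genes that fell. Pfkl, Eno1, Eno3 and Pdk1 also fell and hold no ACGTG in the 250 bases before any start. The other form of the core, GCGTG, is left in lower case and stands on either strand 3 times in the Bnip3 stretch, 2 times in Ankrd37, 1 time in Aldoc (at −50) and not in Ldha or Pgk1.

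Promoters of 37 members were in the RefSeq table, all but Ndrg1 and Slc2a3. ACGTG or GCGTG stood on either strand in the 250 bases before any start of 33 of these 37 genes (89.2%), of 11226 of all 27025 genes in the table (41.5%) and of 6526 of the 10881 tested genes matched to it (60.0%). Counted per start, for which members had 1.51 and tested genes 1.28 starts a gene, the shares were 76.8% of 56 starts of members, 53.8% of starts of tested genes and 38.6% of all 32851 starts. ACGTG alone stood before 21 of the 37 members (56.8%), 24.4% of tested genes and 18.5% of all genes. Within the set, ACGTG or GCGTG stood before 11 of the 11 that fell and 21 of the 24 not called (87.5%), and ACGTG before 7 of 11 (63.6%) and 14 of 24 (58.3%). These are matches of letters and no measure of binding.

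Among the transporters, Slc16a3, which encodes the lactate exporter MCT4, fell. It stood at 26.8, 23.3 and 59.3 CPM in fed cells and 12.7, 16.7 and 37.0 CPM in starved cells, in the order of passages 24, 26 and 27 that is used for all values below (log2 fold change −0.80 ± 0.16 (SE), adjusted p = 0.0406). Each starved library lay below the fed library of its passage, but the starved library of passage 27 lay above the fed libraries of passages 24 and 26, so the groups overlapped. Slc16a1, which encodes MCT1, the carrier that moves lactate and pyruvate in either direction, stood at 88.3, 118 and 187 CPM in fed cells and 108, 221 and 238 CPM in starved cells. It was higher in starved cells in all 3 passages without passing the test (log2 fold change 0.46 ± 0.15 (SE), adjusted p = 0.121). The glucose transporters did not pass. Slc2a1 (GLUT1) gave a log2 fold change of 0.09 (adjusted p = 0.756) and Slc2a3 (GLUT3) −0.06 (adjusted p = 0.880), each with passages on both sides of 0.

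Hexokinase, which traps glucose in the cell as glucose-6-phosphate, is encoded mainly by a housekeeping gene, Hk1, and an inducible gene, Hk2. Hk2 fell, with 93.3, 80.1 and 40.5 CPM in fed cells and 70.0, 28.9 and 20.3 CPM in starved cells (log2 fold change −1.02 ± 0.20 (SE), adjusted p = 0.0355). All 3 pairs were lower, by log2 ratios of −0.47, −1.53 and −1.04, yet the groups overlapped because the fed library of passage 27 lay below the starved library of passage 24. Hk1 stood at 185, 107 and 118 CPM in fed cells and 164, 114 and 113 CPM in starved cells and did not pass (log2 fold change −0.10 ± 0.12 (SE), adjusted p = 0.642).

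Of the phosphofructokinase genes, which encode the committed step of glycolysis, the liver-type Pfkl fell. Its levels were 121, 100.3 and 156 CPM in fed cells and 90.8, 62.3 and 103 CPM in starved cells (log2 fold change −0.62 ± 0.12 (SE), adjusted p = 0.0328). Each pair was lower, and the starved library of passage 27 reached the level of the fed library of passage 26. The platelet-type Pfkp was lower in each passage by log2 ratios of −0.21, −0.31 and −0.21 and did not pass (adjusted p = 0.232).

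The later enzymes of the pathway, from aldolase to lactate dehydrogenase, mostly lay lower in starved cells, on either side of the threshold. Ldha, which encodes the lactate dehydrogenase subunit that predominates in muscle and tumours (chr7:46841475-46855627 in GRCm38), stood at 1161, 804 and 1083 CPM in fed cells and 757, 530.4 and 644 CPM in starved cells (log2 fold change −0.71 ± 0.13 (SE), adjusted p = 0.0303). Every starved library lay below every fed library. Pgk1, which encodes the enzyme of the first ATP-yielding step, stood at 368, 276 and 304 CPM in fed cells and 246, 179 and 177 CPM in starved cells (log2 fold change −0.72 ± 0.12 (SE), adjusted p = 0.0220). Here too the groups did not overlap. Eno1, the ubiquitous enolase, stood at 890.4, 527 and 478 CPM in fed cells and 624, 281 and 321 CPM in starved cells (log2 fold change −0.72 ± 0.14 (SE), adjusted p = 0.0352). Its pairs were all lower, while the starved library of passage 24 lay above the fed libraries of passages 26 and 27.

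The neighbouring enzymes missed the threshold with log2 fold changes of about the same size. Pgam1, a phosphoglycerate mutase, lay just outside it (log2 fold change −0.57, adjusted p = 0.05003), with 121, 79.2 and 99.1 CPM in fed cells and 95.2, 59.3 and 58.0 CPM in starved cells. Aldoa, the main aldolase, had 1091, 751 and 697 CPM in fed cells and 803, 554 and 478 CPM in starved cells (log2 fold change −0.53 ± 0.13 (SE), adjusted p = 0.0584). Gapdh, which encodes the dehydrogenase often used as a reference gene, had 997, 746 and 688 CPM in fed cells and 815, 461 and 462 CPM in starved cells (log2 fold change −0.58 ± 0.14 (SE), adjusted p = 0.0621). Each of these 3 was lower in starved cells in every passage. Tpi1, triosephosphate isomerase (log2 fold change −0.52, adjusted p = 0.0663), and Gpi1, glucose-6-phosphate isomerase (−0.41, adjusted p = 0.0981), were also lower in each passage. Just inside the threshold lay Aldoc (adjusted p = 0.0497) and Vegfa (0.0441).

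Aldoc was the only member called higher. Its levels were 1.33, 1.11 and 2.29 CPM in fed cells and 3.11, 16.2 and 7.70 CPM in starved cells (log2 fold change 2.19 ± 0.49 (SE), adjusted p = 0.0497), and every starved library lay above every fed library. The starved library of passage 26 was highest, and without passage 26 the log2 fold change was 1.45 (adjusted p = 0.0611), so that the call was lost. It was also lost without passage 27 (2.49, adjusted p = 0.116) and without the block (2.44, adjusted p = 0.360). With RLE size factors and with the filter of at least 10 counts in every library the log2 fold change stayed at 2.19 and 2.20, and the adjusted p was 0.0524 and 0.0537. Per kb of exon Aldoc made up 0.109% to 0.292% of the aldolase level in fed cells and 0.344% to 2.54% in starved cells, so Aldoa remained the main aldolase in all 6 libraries.

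Eno2, the neuronal enolase, and Ldhb, the lactate dehydrogenase subunit that predominates in heart, did not pass. Eno2 had log2 ratios of −0.57, 0.36 and 0.37, with passage 24 lower and the others higher (adjusted p = 0.896). Ldhb had ratios of 0.12, −0.23 and −0.44 (adjusted p = 0.599).

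**Figure D2:**
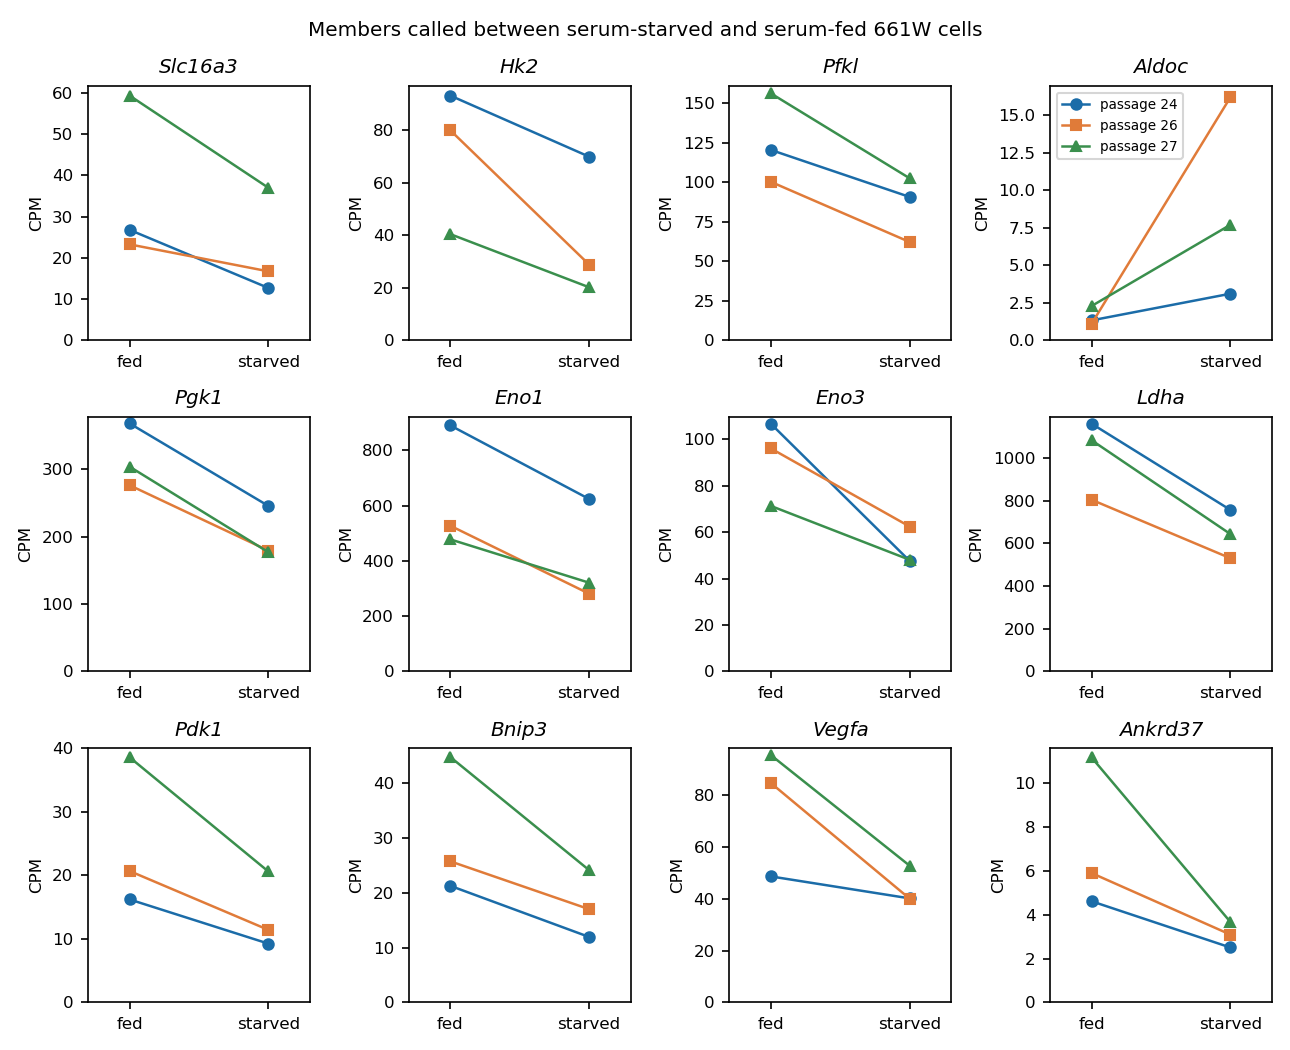
CPM (vertical axes, from 0) of the 12 members called, with 1 line per passage joining the serum-fed to the serum-starved library. Every line slopes down in the 11 genes that fell and up in Aldoc, and in Ldha the starved libraries (530.4 to 757 CPM) lie below all fed libraries (804 to 1161 CPM).

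The muscle isoforms did not move as one. Eno3, the enolase of skeletal muscle (chr11:70657202-70662513), fell, with 107, 96.0 and 71.2 CPM in fed cells and 47.5, 62.4 and 48.1 CPM in starved cells (log2 fold change −0.84 ± 0.15 (SE), adjusted p = 0.0279). Every starved library lay below every fed library. Pfkm, the muscle phosphofructokinase, was instead higher in starved cells in each passage without passing, with 63.6, 67.0 and 79.4 CPM in fed cells and 73.2, 99.6 and 103 CPM in starved cells (log2 fold change 0.33 ± 0.12 (SE), adjusted p = 0.159). Pgam2, the muscle phosphoglycerate mutase, was near 0, with 0.0139, 0.0402 and 0.0131 CPM in fed cells and 0, 0.286 and 0.0229 CPM in starved cells. Of its 6 libraries only the starved one of passage 26 lay well above the level of 3 counts, and Pgam2 was not tested.

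Markers of skeletal muscle moved the other way from Eno3. Of 27 such markers 23 were tested, 15 rose and none fell (none lower by an unadjusted p under 0.05 either), and 22 of the 23 were called between passages. Their summed level was 95.9, 343 and 156.6 CPM in fed and 110.4, 1257 and 438 CPM in starved cells, with Myf5 at 0 in all libraries. The 3 markers of highest level were Myh3, the embryonic myosin heavy chain, Myog, the factor that drives terminal myoblast differentiation, and Cdh15. Myh3 and Myog rose (2.72 and 2.07 on the log2 scale, adjusted p = 0.000870 and 0.00310). Cdh15 did not pass (0.06, adjusted p = 0.803), with 24.9, 93.3 and 40.4 CPM in fed and 28.4, 100 and 41.8 CPM in starved cells. Passage 26 had the highest sum in either condition and also the highest Aldoc and Pgam2 of the starved libraries. In starved cells Aldoc (3.11, 16.2 and 7.70 CPM) had the same order of passages as the sum. Among the fed libraries passage 26 had the lowest Aldoc (1.11 CPM, against 1.33 and 2.29 CPM in passages 24 and 27). Of 8 fibroblast markers 7 were tested and 5 rose, with a summed level of 815 to 2583 CPM in fed and 2079 to 6613 CPM in starved cells. Of 12 markers of ganglion cells and neurons 7 were tested and none was called (edgeR; 1 in each direction by an unadjusted p under 0.05, and 0 by DESeq2 or limma-voom), at 64.9 to 184 CPM in fed and 85.2 to 108 CPM in starved cells. The 1 higher was Thy1, which is also among the fibroblast markers, and the 1 lower was Tubb3 (log2 fold changes 1.69 and −0.67, adjusted p = 0.0773 and 0.202). The part of these other RNAs in the members' results was not tested.

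**Figure D3:**
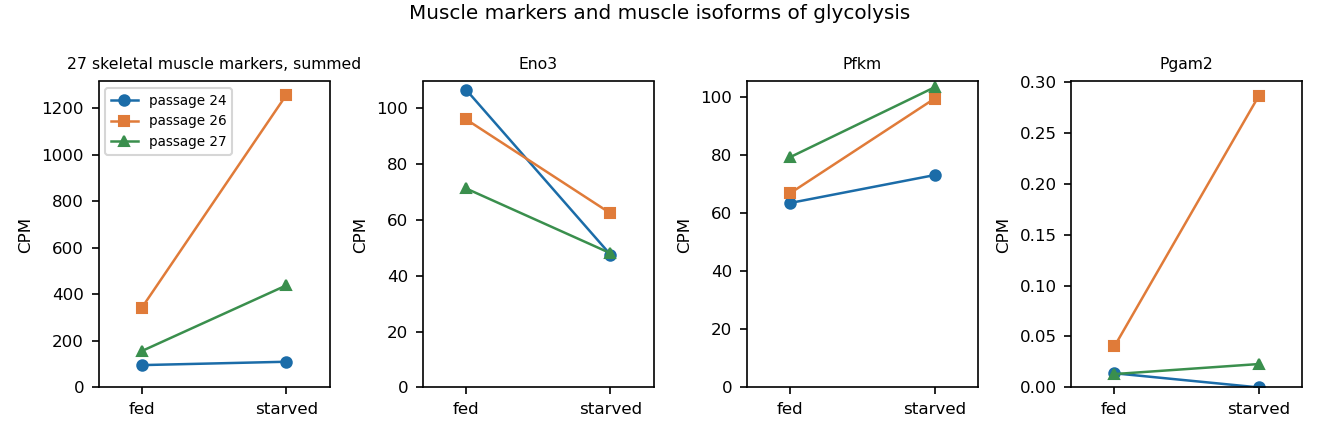
CPM (vertical axes, from 0) of 27 skeletal muscle markers summed, and of the muscle isoforms Eno3, Pfkm and Pgam2, with 1 line per passage from serum-fed to serum-starved. The marker sum is highest in the starved library of passage 26 (1257 CPM), Eno3 slopes down in each passage, and Pgam2 stays under 0.3 CPM.

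The pyruvate dehydrogenase kinases switch off the enzyme that sends pyruvate to the mitochondria, and their genes differed. Pdk1, the isoform best known as a HIF target, had the smallest adjusted p of the set, with 16.2, 20.7 and 38.6 CPM in fed cells and 9.25, 11.4 and 20.6 CPM in starved cells (log2 fold change −0.91 ± 0.15 (SE), adjusted p = 0.0201). Its log2 ratios within passages were close to each other, −0.87, −0.92 and −0.95, although the groups overlapped because the levels differed between passages. Pdk2, the widely expressed isoform, went the other way without passing, with 6.35, 12.3 and 25.8 CPM in fed cells and 14.9, 30.5 and 29.4 CPM in starved cells (log2 fold change 0.85 ± 0.24 (SE), adjusted p = 0.0854). Passage 27 changed little (log2 ratio 0.15, against 1.17 and 1.24 in the others), and without passage 27 the call was made, at a log2 fold change of 1.21 (adjusted p = 0.0426). Pdk3 (log2 fold change −0.24, adjusted p = 0.310) and Pdk4 (−0.15, adjusted p = 0.728) did not pass.

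The phosphofructokinase-2 isoforms make and break fructose-2,6-bisphosphate, the activator of phosphofructokinase. None of the 4 passed the test (edgeR; 1 in each direction by an unadjusted p under 0.05, and 0 by DESeq2 or limma-voom). Pfkfb3, the inducible isoform with the strongest kinase activity, stood at 23.4, 15.8 and 16.2 CPM in fed cells and 15.1, 12.2 and 14.3 CPM in starved cells (log2 fold change −0.45 ± 0.17 (SE), adjusted p = 0.160), and Pfkfb4 at 11.8, 10.9 and 11.2 CPM in fed cells and 15.3, 13.9 and 13.6 CPM in starved cells (log2 fold change 0.28 ± 0.16 (SE), adjusted p = 0.348). In both genes the conditions did not overlap, in opposite directions. Pfkfb1 was lower in each passage (log2 fold change −0.33, adjusted p = 0.313) and Pfkfb2 higher in each (0.47, adjusted p = 0.170).

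Hif1a, the oxygen-regulated subunit, is controlled mainly at the level of its protein, which was not measured. Its messenger stood at 81.2, 90.1 and 136 CPM in fed cells and 85.3, 174 and 161 CPM in starved cells (log2 fold change 0.37 ± 0.18 (SE), adjusted p = 0.259). It was higher in starved cells in each passage, most in passage 26, and did not pass. Egln1 (PHD2), the main prolyl hydroxylase and itself a HIF target, stood at 135, 137 and 161 CPM in fed cells and 112, 103 and 114 CPM in starved cells (log2 fold change −0.45 ± 0.12 (SE), adjusted p = 0.0689). Every starved library lay below every fed library, with the adjusted p outside the threshold. Egln3 (PHD3) had log2 ratios of 0.21, 0.44 and −0.30 and went both ways (adjusted p = 0.692).

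Of the 6 further HIF targets, 3 fell and 3 did not pass. Ankrd37, a small ankyrin-repeat gene that is strongly induced by hypoxia, fell from 4.61, 5.90 and 11.2 CPM in fed cells to 2.51, 3.09 and 3.67 CPM in starved cells (log2 fold change −1.20 ± 0.24 (SE), adjusted p = 0.0378), and the groups did not overlap. Bnip3, a mitophagy receptor, stood at 21.3, 25.7 and 44.8 CPM in fed cells and 11.9, 17.0 and 24.1 CPM in starved cells (log2 fold change −0.83 ± 0.15 (SE), adjusted p = 0.0290). Each pair was lower, and the groups overlapped. Vegfa, the angiogenic growth factor, stood at 48.6, 84.6 and 95.3 CPM in fed cells and 40.1, 40.0 and 52.7 CPM in starved cells (log2 fold change −0.79 ± 0.17 (SE), adjusted p = 0.0441). Passage 24 changed least, the groups overlapped, and with library totals as the only scaling the adjusted p was 0.0502.

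The other targets showed no common direction. Ndrg1, a stress-response gene, stood at 87.8, 134 and 238 CPM in fed cells and 220.2, 221 and 203 CPM in starved cells, and its log2 ratios were 1.27, 0.65 and −0.28 (adjusted p = 0.253). The starved libraries were level with each other while the fed libraries differed. P4ha1, a collagen prolyl hydroxylase subunit, had ratios of −0.08, 0.05 and −0.44 (adjusted p = 0.521). Car9, the carbonic anhydrase often used as a hypoxia marker, was low throughout, with 0.139, 0.550 and 1.38 CPM in fed cells and 0.116, 0.533 and 0.746 CPM in starved cells (log2 fold change −0.49 ± 0.35 (SE), adjusted p = 0.443).

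When the length-scaled levels of the genes of each step were summed, Pkm included, 10 of the 11 steps from hexokinase to lactate dehydrogenase were lower in starved cells in all 3 passages. This summing was chosen after the single genes had been seen. The mean log2 ratio over passages was −0.42 ± 0.14 (SD, n = 3) for hexokinase, −0.51 ± 0.05 for aldolase, −0.72 ± 0.10 for phosphoglycerate kinase, −0.67 ± 0.12 for enolase and −0.69 ± 0.08 for lactate dehydrogenase. Phosphofructokinase was the exception at −0.07 ± 0.09, with passage 26 at 0.02. This exception rests on the length used, here every annotated exon of a gene. The mean was −0.15 with the length of the longest transcript and −0.21 with no length scaling. With no length scaling the phosphofructokinase sum of passage 26 was lower in starved cells too. Pfkl was lower in each passage and Pfkm higher. Pyruvate kinase stood nearest to it at −0.18 ± 0.07. Its gene Pkm, which is outside the set and named after its values were seen, had 4092, 2474 and 2249 CPM in fed cells and 3586, 2277 and 2163 CPM in starved cells (log2 fold change −0.18 ± 0.14 (SE), adjusted p = 0.494).

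**Figure D4:**
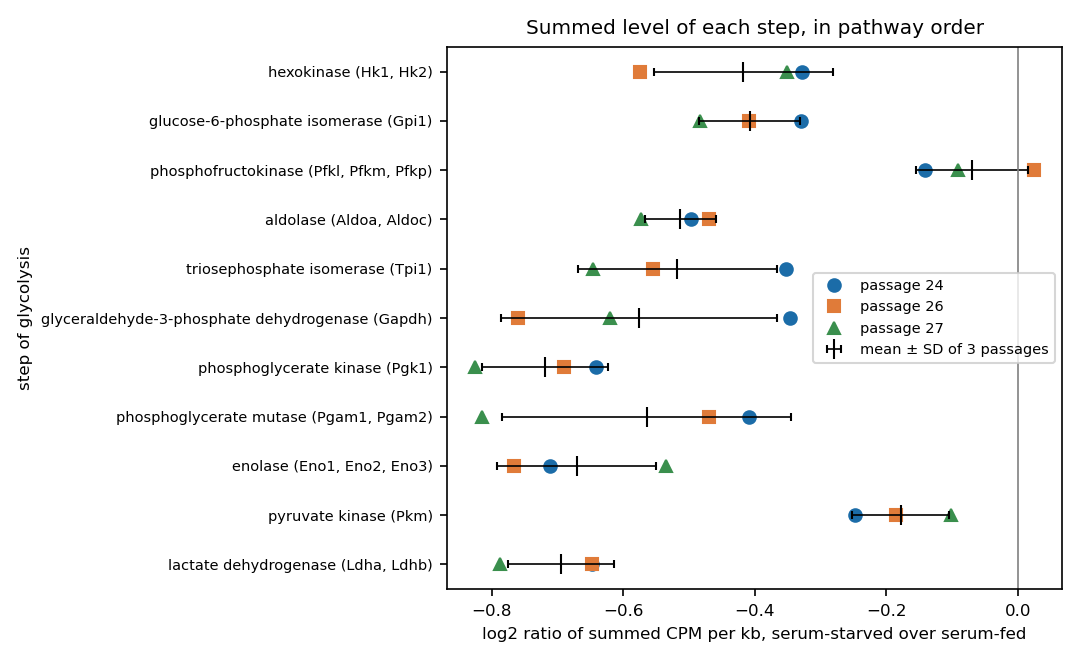
Log2 ratio of serum-starved over serum-fed cells for the summed level of each glycolytic step (CPM per kb of exon, TMM-scaled, horizontal axis), in pathway order from top to bottom, with 1 point per passage and the mean ± SD of 3 passages in black. All points lie below 0 except phosphofructokinase in passage 26 (0.02).

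Isoform shares were computed for the families with several members. A share is a gene's part of its family's level per kb of exon, and 19 of 26 shares in 10 families went the same way in all 3 passages. With the length of the longest transcript 18 did, and with no length scaling 16 did. The size of a share depends on the length used. The shares of a family add up to 100%, so they are not independent. Each was tested by an exact two-sided permutation within passages, whose smallest possible p with 3 pairs is 0.25, so the test cannot pass. Hk1 made up 58.1, 48.3 and 67.1% of hexokinase in fed cells and 62.1, 73.4 and 79.7% in starved cells. Hk1 has 8532 bases of exon and a longest transcript of 4278 bases, against 5969 and 5513 bases for Hk2. With the longest transcript as the length, the share of Hk1 is larger. Pfkm made up 39.6, 46.4 and 42.7% of phosphofructokinase in fed cells and 48.3, 64.7 and 57.5% in starved cells. Slc16a1 made up 79.9, 85.9 and 79.1% of the MCT1 and MCT4 level in fed cells and 91.1, 94.1 and 88.6% in starved cells. Those starved values lie above all fed values for Pfkm and Slc16a1, and for Hk1 the starved share of passage 24 lies below the fed share of passage 27.

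Eno3 made up 25.8, 34.1 and 29.7% of enolase in fed cells and 18.1, 36.0 and 28.1% in starved cells. Eno1 has 5379 bases of exon and a longest transcript of 2027 bases, against 1739 and 1564 bases for Eno3. With the longest transcript as the length, the share of Eno3 is smaller in every library, so its size is not resolved. Eno1 and Eno3 both fell, and the share of Eno3 went both ways. Pdk2 made up 4.73, 8.90 and 15.4% of the kinases in fed cells and 10.2, 23.0 and 21.4% in starved cells, while Pdk3 held most of that level in every library.

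**Figure D5:**
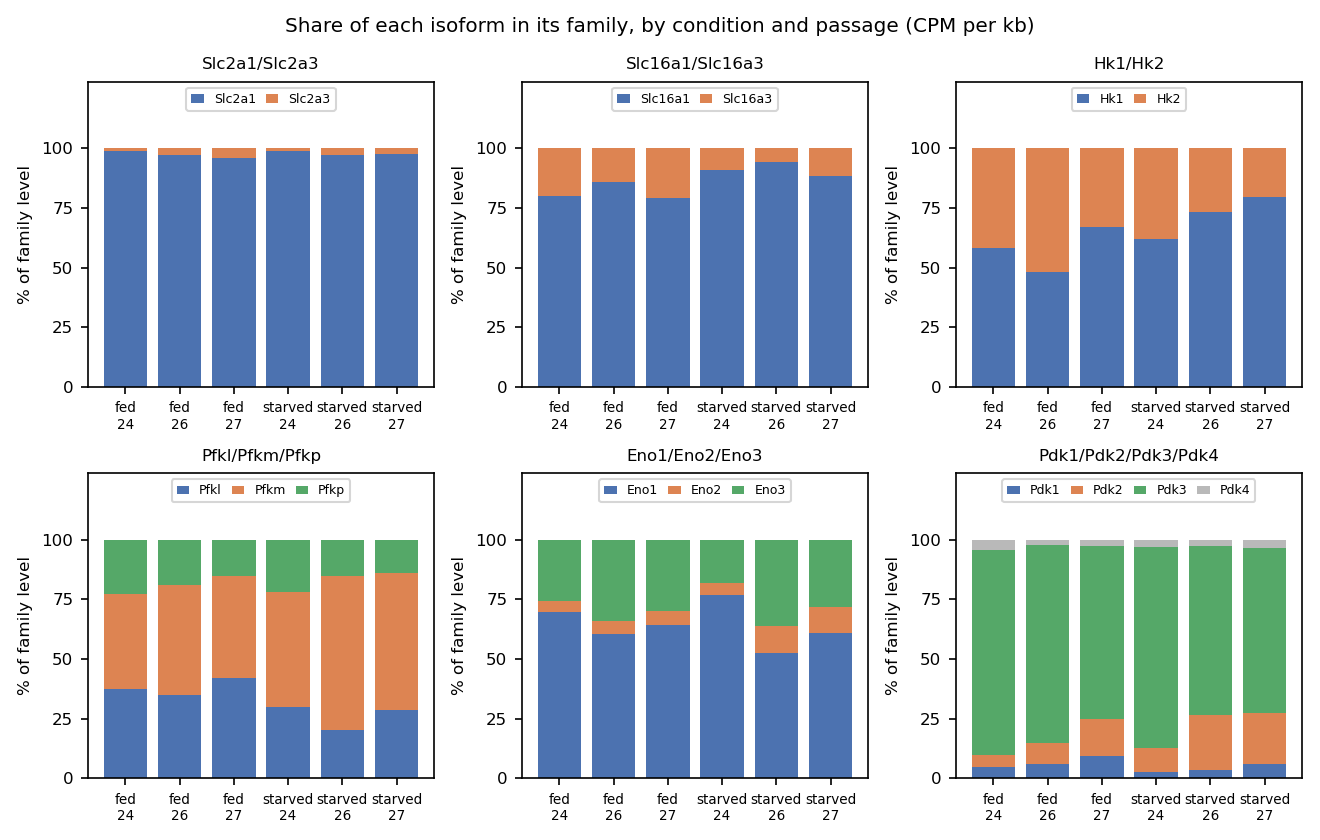
Share of each isoform in its family's level (CPM per kb of exon, vertical axes in percent) in the 3 serum-fed and 3 serum-starved libraries of passages 24, 26 and 27, for 6 families. Hk1, Pfkm, Slc16a1 and Pdk2 take a larger share in the starved library of each passage than in its fed library.

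Compared per kb of exon, counting every annotated exon of a gene in GENCODE M21, the members spanned a wide range in fed cells. Ldha stood highest at 307 ± 56.6 CPM per kb (SD, n = 3), followed by Aldoa at 291 ± 73.5, Tpi1 at 214 ± 42.6 and Gapdh at 196 ± 39.6. The spread of these neighbours over passages overlapped, so their order is not resolved. The order also depends on the length used. Eno1, at 117 ± 41.9 CPM per kb, has 5379 bases of exon and a longest transcript of 2027 bases. Slc2a1 stood at 34.9 ± 4.65 and Slc2a3 at 0.927 ± 0.473. Lowest apart from Pgam2 were Aldoc at 0.484 ± 0.192 and Car9 at 0.299 ± 0.273.

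Members also differed between passages. In the test of the passage term 15 of 38 were called (39.5%, against 14.0% of all genes), and 6 of these, Slc16a3, Hk2, Pfkl, Eno1, Pdk1 and Bnip3, were also called between conditions. In 6 the levels of passages 26 and 27 lay below those of passage 24: Hk1, Hk2, Aldoa, Gapdh, Pgam1 and Eno1. Eno1 had log2 differences of −1.03 and −1.02 (adjusted p = 0.0160). In 8 the fitted level was lowest in passage 24 and highest in passage 27: Slc2a3, Slc16a1, Slc16a3, Pdk1, Pdk2, Bnip3, Car9 and P4ha1. P4ha1 had log2 differences of 0.06 in passage 26 and 1.17 in passage 27 over passage 24 (adjusted p = 0.0113). In the remaining gene, Pfkl, passage 26 was lowest. Each passage was grown once, so passage number and anything else that differed between the experiments cannot be told apart.

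Further genes of these pathways were set beside the members. Of 23 tested further genes of glycolysis and pyruvate use, Dlat, the acetyltransferase subunit of pyruvate dehydrogenase, fell from 104, 103 and 91.0 to 70.6, 55.3 and 51.1 CPM (log2 fold change −0.82 ± 0.12 (SE), adjusted p = 0.0160), and Slc2a6, a hexose transporter of lysosomes, rose from 10.8 ± 1.83 to 19.2 ± 4.73 CPM (log2 fold change 0.76 ± 0.16 (SE), adjusted p = 0.0441). The median log2 fold change of the 23 was −0.11. Pdp2, Adpgk, Pgm1 and Pdha1 followed with adjusted p from 0.0663 to 0.0800. Of 8 genes of the pentose phosphate pathway none was called (edgeR; 3 lower and 1 higher by an unadjusted p under 0.05, and 1 higher by either DESeq2 or limma-voom with the block). Tkt, transketolase, came nearest, at 313, 308 and 327 CPM in fed cells and 441, 514 and 496 CPM in starved cells (log2 fold change 0.56 ± 0.13 (SE), adjusted p = 0.0507), higher in every starved than in any fed library. Of 13 tested genes of glycogen and muscle energy use, Ckm, the muscle creatine kinase, rose from 0.0139, 0.228 and 0.0524 to 0.116, 1.68 and 0.528 CPM (log2 fold change 2.96 ± 0.41 (SE), adjusted p = 0.0123). Ak1, the adenylate kinase of muscle and brain, fell (log2 fold change −1.02 ± 0.18 (SE), adjusted p = 0.0248), and Pygb, brain glycogen phosphorylase, had 96.0, 76.1 and 112 CPM in fed cells and 139, 126 and 152 CPM in starved cells (log2 fold change 0.51 ± 0.12 (SE), adjusted p = 0.0536).

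Of 6 tested genes of the HIF pathway itself, Epas1, which encodes HIF-2 alpha, rose from 2.42, 0.938 and 0.629 to 5.91, 3.20 and 2.97 CPM (log2 fold change 1.69 ± 0.29 (SE), adjusted p = 0.0225), with no overlap between conditions. Arnt, the partner subunit, stood at 40.4, 53.6 and 81.1 CPM in fed cells and 54.8, 84.7 and 107 CPM in starved cells (log2 fold change 0.44 ± 0.12 (SE), adjusted p = 0.0762). Vhl and Egln2 were higher without passing (log2 fold changes 0.36 and 0.31, adjusted p = 0.151 and 0.151). By an unadjusted p under 0.05 (edgeR), 4 of the 6 were higher and 0 lower, against 13.1% and 11.1% of all genes. DESeq2 with the block called 2 higher and 0 lower, and of all its 24541 genes 1144 higher and 884 lower. Of 30 further HIF targets, 2 fell and 1 rose, with a median log2 fold change of −0.01 beside −0.37 for the members. At an unadjusted p under 0.05 (edgeR), 10 of the 30 were lower and 2 higher, against 11.1% and 13.1% of all genes. With DESeq2 and the block 6 of the 30 were called lower, against 3.60% of all its genes, and 1 higher. Those that fell were Fam162a, a mitochondrial protein gene (log2 fold change −0.75 ± 0.14 (SE), adjusted p = 0.0340), and Mif, a cytokine gene (log2 fold change −0.74 ± 0.16 (SE), adjusted p = 0.0465). The gene that rose was Stc2, a secreted glycoprotein gene (log2 fold change 0.74 ± 0.15 (SE), adjusted p = 0.0373). Ero1l, an oxidase of protein folding, came next at 41.9, 54.2 and 116 CPM in fed cells and 35.6, 32.1 and 38.8 CPM in starved cells (log2 fold change −0.91 ± 0.24 (SE), adjusted p = 0.0691).

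Several members share sequence with other genes, which bears on how their reads could be counted. Of all windows of 75 bases, the read length, in the longest coding transcript, 80.3% in Gapdh, 67.5% in Pgk1, 65.4% in Eno1, 40.6% in Pgam1, 24.3% in Pfkfb2, 16.8% in Ldhb and 15.3% in Bnip3 occurred exactly in another annotated gene. In the other 32 members the share was under 10%. Counts of the table's genes that share windows with Gapdh came to 15.0% of the counts of Gapdh, and of those that share with Pgk1, Eno1, Pgam1 and Bnip3 to under 1%. Of the genes that share windows, 105 of 118 had an entry for Gapdh and 2 of 2 for Pgam1. For Pgk1, Eno1 and Bnip3 only 2 of 4, 1 of 6 and 1 of 3 had one, so these percentages cover a part of the sharing genes. Whether reads with several matches were dropped is not given in the sources used here, so the levels of Gapdh, Pgk1, Eno1 and Pgam1 are uncertain.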

How the data were processed

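The authors made polyA-selected, reverse-stranded libraries, sequenced single-end 75-base reads, aligned them to GRCm38/mm10 with STAR and counted reads per gene with HTSeq in union mode. The deposited counts are not normalized, with versions of these tools not given in the sources used here. The authors' DESeq2 comparison (fold changes and p-values) was not used. Of 38803 table entries, 27 whose names had become dates were left out (0.223% to 0.301% of counts), leaving 38776 genes, 35629 of them named in GENCODE M21.

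Counts were tested with edgeR 4.0.16 (quasi-likelihood F-test, TMM factors 0.941 to 1.04, filterByExpr, passage as a block, Benjamini-Hochberg adjustment over all 16168 genes), under R 4.3.3. Passages pair by their labels, and deviations from the condition means correlated within passages at 0.675, 0.273 and 0.605. The highest correlation with another passage was −0.147, 0.251 and 0.251, so the 2 libraries of passage 26 matched each other only slightly better than those of another passage. Ratios within passages used TMM-scaled CPM with 0.5 counts added. Lengths and positions are from GENCODE M21 (GRCm38), promoters from RefSeq (GRCm38.p6), in transcript orientation: the last 30 bases matched the sense of the gene's transcripts for 46 of 56 starts and the antisense for 0. Alternatives were no block, DESeq2 1.42.0, limma-voom 3.58.1, RLE factors, library totals, no filter, a minimum of 10 counts per library, and each passage left out in turn. Both edgeR and these tools were tested on simulated data. All 39 members are accounted for, as are, of each further list, up to 6 tested genes with the smallest p, and of each marker list the sums and up to 3 genes of highest level. The members and lists were chosen with earlier results of these data known. Python 3.11.15, pandas 2.3.3 and matplotlib 3.10.9 were used.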

Additional observations from a re-analysis of the deposited data

How the results depend on the processing

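Of all genes, 562 were called higher and 258 lower. Without the replicate block edgeR called 4 and 0 (864 and 483 by unadjusted p under 0.05). The counts were, for DESeq2 with the replicate block 1144 and 884, DESeq2 without the replicate block 285 and 47, and edgeR with no filter 1106 and 705. Each of these fits covered 24541 genes. Leaving out 1 replicate gave 271 to 863 higher and 63 to 493 lower, the lowest without passage 27. Of the members, 11 were called lower and 1 higher. Without the replicate block 0 and 0 were called, with DESeq2 17 lower and 2 higher with the block, and 1 lower (Ankrd37) and 1 higher (Aldoc) without it. RLE factors and the filter of at least 10 counts gave 0 higher, and no filter gave 15 lower and 2 higher. Leaving out 1 replicate gave 0 to 12 lower and 0 to 1 higher, the higher one without passage 27 being Pdk2. Between passages 2270 genes were called, 4061 with DESeq2 and 3528 with no filter. For the members that count was 15, and 13 to 20 in the alternatives.

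Over the members' log2 fold changes, 355 values under alternatives kept their side of the threshold, 44 lost and 18 gained the call, and none that was called in either setting changed sign. Library totals moved the median of all genes to 0.06. The phosphofructokinase sum was −0.15 with the length of the longest transcript and −0.21 with no length scaling, alternatives chosen after seeing the data. Per kb of exon, a count of Pfkm (3340 bases) weighs more in this sum than 1 of Pfkl (6675 bases) or Pfkp (13401 bases). The passage term has no value with a passage left out or without the block. With 3 pairs, 1 line and calls near the threshold, a member not called is not shown to be unchanged.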

Other observations

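Gm13394, an annotated gene that shares 851 windows of 75 bases with Gapdh, had 7410, 3724 and 3023 counts in fed and 5429, 1910 and 3197 counts in starved cells of passages 24, 26 and 27. Gm4735, which shares 924 windows with Eno1, had 629, 376 and 261 counts in fed and 410, 167 and 232 counts in starved cells. Pgk1-rs7, which shares 1181 windows with Pgk1, had 11, 15 and 5 counts in fed and 2, 20 and 5 counts in starved cells. These values are given without explanation.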
